A study of Mus musculus with 12 samples.

Results

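Macrophage and monocyte genes were followed in mammary tumors from MMTV-neu mice, whose tumors arise from a neu (Erbb2) transgene driven by the mouse mammary tumor virus promoter. The genes were taken by symbol from a list of 34, out of 54532 genes in the deposited tables. Of these, 19 are pan-macrophage genes, carried by most cells of the lineage, and 15 are polarization or state genes, which differ between macrophage subsets. Messenger RNA from 12 tumors was sequenced after poly(A) enrichment. All mice carried the transgene, and diets began when tumors reached 4 mm and lasted 10 days. The diet was control diet for 4 mice, MSU-42011 at 100 mg/kg diet for 4 and bexarotene at 100 mg/kg diet for 4. Both compounds are agonists of the retinoid X receptor (RXR), a nuclear receptor, and the study asked how gene expression in the tumor differs between them. The labels carry a different animal tag for each tumor but give no ages, and p-values measure the spread between these tumors.

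Macrophages in a tumor derive from circulating monocytes and from tissue-resident cells, and they depend on signals through the CSF1 receptor and on the transcription factor PU.1. They engulf dying cells and debris through scavenger and Fc receptors, make complement component C1q, and take on a range of states. Mannose receptor (Mrc1, CD206), Cd163, Clec10a and Retnla are commonly read as marks of alternative or resident-like states, and Nos2 and Cd86 as marks of inflammatory activation. RXR pairs with PPAR gamma and LXR, which regulate lipid handling genes in macrophages. In bulk tumor RNA, fewer macrophages and less RNA per macrophage cannot be told apart.

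Total counts per tumor ran from 16583413 to 25925027, so the floor of 3 counts corresponded to 0.116 to 0.181 CPM (counts scaled to sequencing depth). With edgeR's filter on low counts, 15504 genes were tested, among them 31 of the 34 members. All 19 pan-macrophage genes passed, and Marco, Chil3 and Cd209f did not. One tumor stood apart: on the first principal component bexarotene replicate 1 lay at -115, and the other 11 tumors lay between -16.2 and 34.2. Every comparison that involves bexarotene is therefore given with and without this tumor. Adgre1 and Csf1r, which encode F4/80 and the CSF1 receptor and define the lineage, had at least 87 and 446 reads in every tumor.

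Upstream sequences are shown for 2 C1q chains and for 2 state genes, Mrc1 and Retnla, because these pairs behaved differently across the tumors. They are RefSeq sequences on GRCm38.p6, written 5′ to 3′ on the gene's strand, and they stop before the start of the gene in the count table. Capitals mark the letters GAGGAA, the core of the site that PU.1 binds, or AGGTCA, the half-site of many nuclear receptors including RXR partners, on either strand (TTCCTC and TGACCT on the other strand).

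C1qb, chr4:136886201-136886450, minus strand: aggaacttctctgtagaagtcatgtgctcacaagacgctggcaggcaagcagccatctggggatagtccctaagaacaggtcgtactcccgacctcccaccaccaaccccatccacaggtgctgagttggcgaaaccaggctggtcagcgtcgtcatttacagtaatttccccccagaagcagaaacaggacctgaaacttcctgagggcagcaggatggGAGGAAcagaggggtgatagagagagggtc
C1qc, chr4:136893066-136893164, minus strand: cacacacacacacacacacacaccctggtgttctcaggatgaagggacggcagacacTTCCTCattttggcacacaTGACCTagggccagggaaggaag
Mrc1, chr2:14229164-14229391, plus strand: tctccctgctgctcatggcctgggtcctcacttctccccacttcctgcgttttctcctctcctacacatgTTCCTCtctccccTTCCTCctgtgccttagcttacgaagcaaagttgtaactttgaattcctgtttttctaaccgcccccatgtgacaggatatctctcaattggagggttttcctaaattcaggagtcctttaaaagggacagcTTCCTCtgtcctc
Retnla, chr16:48842359-48842550, plus strand: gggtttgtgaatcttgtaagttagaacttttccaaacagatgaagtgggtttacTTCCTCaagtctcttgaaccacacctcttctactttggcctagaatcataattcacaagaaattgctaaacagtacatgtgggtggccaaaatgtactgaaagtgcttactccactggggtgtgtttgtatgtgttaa

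Of the 34 members, 22 had a RefSeq promoter. Within 250 bases before the start, GAGGAA or TTCCTC occurred in 12 of these 22 (54.5%), against 25.9% of 27025 genes with a promoter of the same length. The Mrc1 window held 3 such matches and Retnla 1, so the letters occur both in genes that followed Csf1r across tumors and in genes that did not. AGGTCA or TGACCT occurred in 4 of 22 members (18.2%), namely Fcgr2b, C1qc, Retnla and Aif1, against 15.8% of genes. The counted window ran to the RefSeq start, so the Retnla match lies past the end of the sequence shown. A match describes letters in this window and nothing about binding.

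Levels between genes were compared per length, as FPKM, in the control tumors. The length behind the authors' FPKM was often shorter than the listed exonic length, at 1975 against 10288 bases for Stab1, 719 against 3788 for Laptm5 and 1597 against 5790 for Fcgr2b, so the order between genes depends on which length is used. The most abundant pan-macrophage genes were Lyz2, the lysozyme of phagocytes, at 155 ± 62.2 FPKM (SD, n = 4), and C1qa at 105 ± 39.1 FPKM (SD, n = 4). Both were measured in the same 4 tumors. Their SDs give the spread between tumors and do not test the difference between these genes. Cd14, the lipopolysaccharide co-receptor, had 75.8 ± 80.2 FPKM (SD, n = 4), a mean carried by control replicate 2, so it has no fixed place in the order. C1qb had a mean of 59.2, C1qc 55.7 and Laptm5, a lysosomal membrane protein of blood cells, 52.0 FPKM. Csf1r lay at 11.7 ± 4.09 FPKM and Adgre1 at 4.36 ± 0.996 FPKM (SD, n = 4). Among state genes Stab1, a scavenger receptor, had a mean of 23.6 FPKM. Per listed exonic length the means were 31.0 for C1qc, 9.87 for Laptm5 and 4.54 for Stab1, while those of Lyz2, C1qa, Cd14 and C1qb stayed as given. Clec4n (Dectin-2) had a mean of 7.64, Msr1 (scavenger receptor A) 3.54, Mrc1 2.38, Cd86 1.995, Clec7a (Dectin-1) 1.80, Clec10a 1.33, Folr2 1.17, Retnla 1.07, Nos2 0.566 and Cd163 0.267 FPKM. Marco, Cd209f and Chil3 lay at 0.155 FPKM or below.

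High and low tumors occurred within each diet group. Counted over all 34 members, bexarotene replicate 1 was the highest tumor for 29, made up of 18 of 19 pan-macrophage genes and 11 of 15 state genes. The same tumor was the highest of the 12 for 19.1% of all genes tested. Among the other 11 tumors, MSU-42011 replicate 3 was the highest for 13 members (16.3% of genes tested) and control replicate 1 for 11 (8.14%). Control replicate 3 was the lowest of all 12 for 13 members, 10 of them pan-macrophage genes (7.65% of genes tested). The heat map of levels by tumor shows these tumors in 3 different diet groups.

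**Figure D1:**
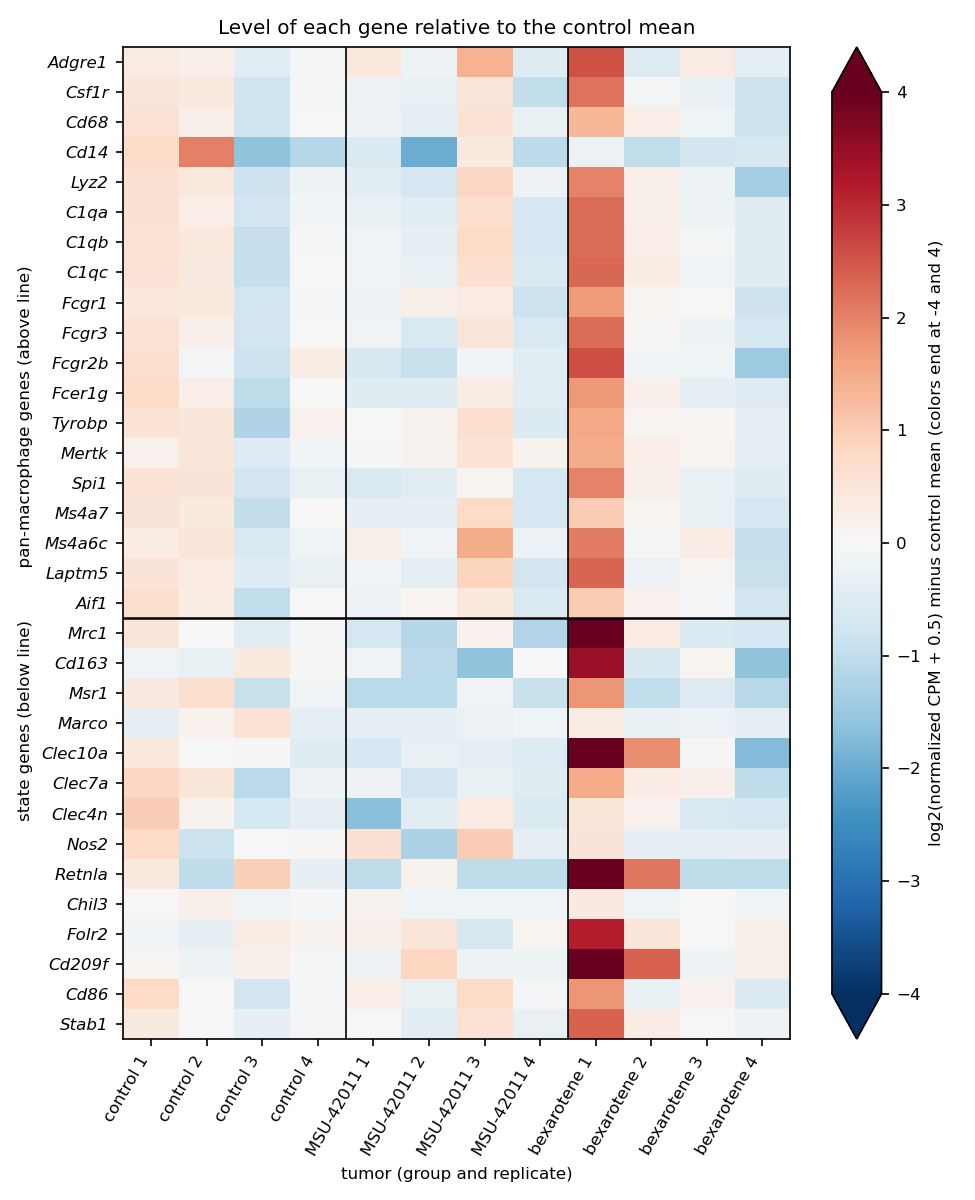
Each row is 1 gene and each column 1 of the 12 tumors, and color gives log2(normalized CPM + 0.5) minus the mean of the 4 control tumors. Most pan-macrophage rows share 1 pattern across the columns, with bexarotene replicate 1 highest for 18 of 19, whereas state rows differ among themselves.

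The identity genes gave the clearest view of this pattern. Adgre1 had normalized CPM of 8.96, 8.10, 5.08 and 6.64 in the control tumors (replicates 1 to 4), 9.57, 6.06, 19.3 and 4.90 with MSU-42011, and 43.4, 4.82, 9.06 and 5.33 with bexarotene. Csf1r read 68.6, 63.5, 27.7 and 46.7 in controls, 42.1, 39.5, 68.1 and 24.6 with MSU-42011, and 222, 46.4, 39.9 and 27.3 with bexarotene. In both genes 1 bexarotene tumor lay above all 11 others and the remaining 3 overlapped the controls. Spi1, which encodes PU.1, read 18.2, 17.6, 6.95 and 9.74 in controls, 7.75, 8.85, 13.3 and 7.33 with MSU-42011, and 50.1, 13.9, 10.1 and 8.46 with bexarotene. Cd68, a lysosomal glycoprotein, ranged from 13.4 to 35.7 in the other 11 tumors and was 60.7 in bexarotene replicate 1. Lyz2 ranged from 74.9 to 351 and was 780 in that tumor; its reads could be shared with the similar gene Lyz1. Laptm5 (19.5 to 68.3, and 187), Ms4a6c (1.66 to 10.9, and 16.5), Ms4a7 (11 to 37.6, and 43.9) and Aif1, an actin-binding protein (4.97 to 17.3, and 21.5), had the same highest tumor. Exons of Csf1r share 15.1% of their bases with Hmgxb3 on the opposite strand and those of Ms4a6c 53.1% with BE692007, and whether counting used strand is not given in the sources used here.

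Cd14 was the pan-macrophage gene that departed from this order. It read 126, 310, 24.5 and 34.5 in controls, 50.6, 18.7, 101 and 36.8 with MSU-42011, and 65.0, 38.0, 45.7 and 48.2 with bexarotene. Its highest tumor was control replicate 2, and bexarotene replicate 1 was not among the 3 highest.

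The chains of C1q, the recognition part of the classical complement pathway, lie together on chromosome 4 (C1qb at 136880129 to 136886187, C1qc at 136889804 to 136893065 and C1qa at 136895917 to 136898803; coordinates as in the tables, which were identical to a GRCm38 annotation for 98.3% of genes). Their levels kept close ratios to Csf1r and to each other. C1qa read 161, 128, 61.7 and 99.0 normalized CPM in controls, 87.2, 79.5, 166 and 65.5 with MSU-42011, and 504, 126, 92.5 and 75.6 with bexarotene. C1qa thus spanned 8.17-fold over the 12 tumors, but its ratio to Csf1r spanned only 1.38-fold, from 2.01 to 2.77. The ratios of C1qb (1.15 to 1.62) and C1qc (1.08 to 1.56) to Csf1r were as narrow. Per length, C1qb stood at 0.495 to 0.619 of C1qa and C1qc at 0.469 to 0.570 of C1qa in all 12 tumors.

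Among Fc receptors and their adaptors, Fcgr1 (CD64), the high-affinity receptor for IgG, ranged from 3.31 to 8.72 normalized CPM in 11 tumors and was 22.1 in bexarotene replicate 1. Fcgr3 (5.45 to 14.7, and 47.9) and Fcgr2b, the inhibitory receptor (3.49 to 16.7, and 64.9), were further apart in that tumor. The signaling adaptors Fcer1g (6.84 to 24.0, and 48.6) and Tyrobp (8.23 to 31.2, and 58.7) were less far apart. Mertk, a receptor for dying cells, ranged from 4.97 to 10.9 and was 21.6.

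**Figure D2:**
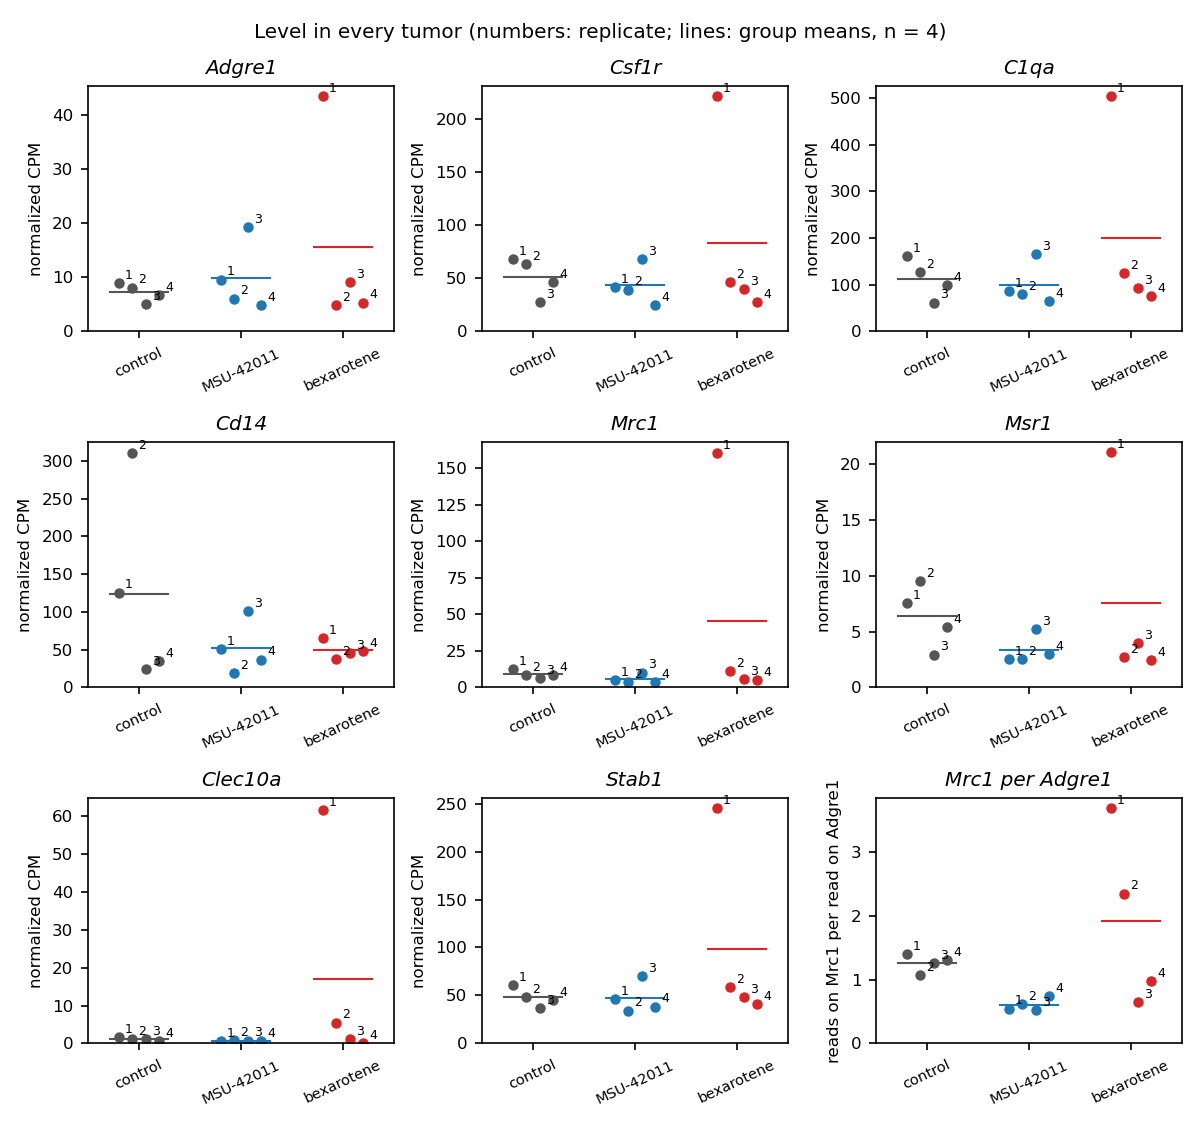
Points give the level of 8 genes in each tumor (normalized CPM, axes from 0) and, in the last panel, reads on Mrc1 per read on Adgre1; numbers name the replicate and lines the mean of 4 tumors. Bexarotene replicate 1 is far above the other tumors for Adgre1 (43.4), Csf1r (222), C1qa (504), Mrc1 (160), Msr1 (21.1), Clec10a (61.7) and Stab1 (245), but not for Cd14, and in the last panel all 4 MSU-42011 tumors lie below all 4 controls.

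State genes did not follow one order. Mrc1 read 12.6, 8.71, 6.41 and 8.62 normalized CPM in controls, 5.22, 3.76, 10.1 and 3.65 with MSU-42011, and 160, 11.3, 5.86 and 5.21 with bexarotene. Clec10a, a lectin of macrophages and dendritic cells that binds galactose-type sugars, read 1.72, 1.18, 1.23 and 0.690 in controls, 0.550, 0.848, 0.758 and 0.671 with MSU-42011, and 61.7, 5.48, 1.21 and 0 with bexarotene. Outside bexarotene replicate 1, Mrc1 was at most 12.6 and Clec10a at most 5.48.

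Retnla, a secreted protein induced by interleukin-4, read 0.831, 0, 1.44 and 0.302 in controls, 0, 0.606, 0 and 0 with MSU-42011, and 69.5, 3.82, 0 and 0 with bexarotene. Cd209f, a lectin, had 36.5 in bexarotene replicate 1, 2.43 in replicate 2 and 0 to 0.545 elsewhere. Cd163, the hemoglobin scavenger receptor, was 16.3 in bexarotene replicate 1 and 0 to 1.5 elsewhere. Folr2, a folate receptor of resident macrophages, was 12.2 there and 0.433 to 1.53 elsewhere; 63.1% of its exonic bases overlap another gene, Gm10602. Where a tumor had 0 reads, its level was below its own floor of 3 counts.

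Bexarotene replicate 2 was the highest of the remaining 11 tumors for Clec10a, Retnla, Cd209f and Folr2, at 5.48, 3.82, 2.43 and 1.53 normalized CPM. For Folr2 the lead was slight, with 1.51 in MSU-42011 replicate 2. It was the highest of these 11 for none of the pan-macrophage genes. Over all 12 tumors, bexarotene replicate 2 was the highest for 1617 of 15504 genes tested, so such a count is not particular to these members. Bexarotene replicates 3 and 4 read 0 for Retnla, and replicate 4 read 0 for Clec10a as well, so the bexarotene group held both ends of the range.

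Msr1 read 7.60, 9.52, 2.94 and 5.43 in controls, 2.53, 2.54, 5.25 and 2.98 with MSU-42011, and 21.1, 2.72, 3.97 and 2.45 with bexarotene. Stab1 ranged from 34.2 to 70.6 and was 245 in bexarotene replicate 1. Cd86, a co-stimulatory ligand for T cells, ranged from 1.12 to 4.23 and was 8.78 there. Nos2, the inducible nitric oxide synthase, stayed between 0.303 and 3.36 in all 12 tumors. Clec7a, a receptor for fungal glucans, ranged from 0.855 to 4.57 and was 7.49, and Clec4n was highest in control replicate 1, at 13.5. Marco, a scavenger receptor, had at most 0.481 and Chil3, a chitinase-like protein, at most 0.221, near the floor.

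To see which genes were high in bexarotene replicate 1 beyond a general rise of macrophage genes, each gene was divided by Csf1r in the same tumor. Of 18 other pan-macrophage genes, 0 had a higher ratio in this tumor than in all 11 others, and 8 had a lower one, namely Cd68, Cd14, Fcgr1, Fcer1g, Tyrobp, Mertk, Ms4a7 and Aif1. Of 15 state genes, 6 had a higher ratio than in all 11 others, namely Mrc1, Cd163, Clec10a, Retnla, Folr2 and Cd209f. Mrc1 stood at 0.722 of Csf1r against a median of 0.149 in the other tumors, 4.86 times that median. The factor was 5.67 for Cd163, 13 for Clec10a and 2.0 for Folr2, against 1.07 for Adgre1, 0.980 for C1qa, 0.895 for Spi1 and 0.443 for Aif1. Msr1 (0.954), Stab1 (1.0) and Cd86 (0.803) kept close to the median. These ratios describe 1 tumor and carry no test, and no share over all genes is given beside them. Csf1r in this tumor was 5.26 times the median of the other 11, so a gene that rose less has a lower ratio. Genes outside the members rose more, such as the collagen Col1a1, at 3561 normalized CPM against at most 280 elsewhere. A high ratio is thus not particular to macrophage state genes.

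**Figure D3:**
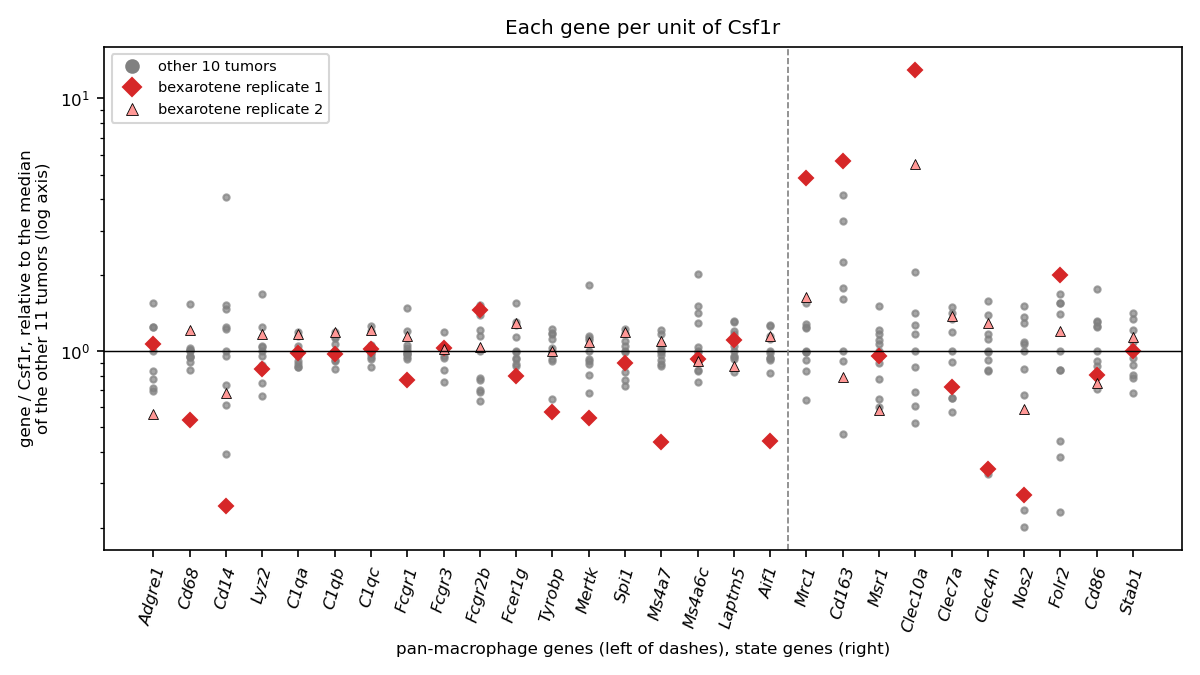
Each gene's reads per read on Csf1r, relative to the median of the 11 tumors other than bexarotene replicate 1, on a log axis, for members that passed the filter and whose median is above 0; tumors with 0 reads are not drawn. For Mrc1, Cd163, Clec10a and Folr2 the diamond of bexarotene replicate 1 lies above all other points, and for 8 pan-macrophage genes it lies below all others.

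The level of markers of other cell types moved with this tumor. The summed level of 8 fibroblast markers, collagens Col1a1, Col1a2 and Col3a1 among them, was 11290 normalized CPM in bexarotene replicate 1, 899 in bexarotene replicate 2 and 75.7 to 456 elsewhere, and all 8 were detected in both tumors. The summed level of 8 monocyte-related genes was 1941, 190 and 22.2 to 73.3, respectively, of which Fn1, also made by fibroblasts, gave 1518 in the first tumor. Ly6c2, which marks classical monocytes, was at most 0.849 CPM in all 12 tumors. Skeletal muscle genes summed to 231 in bexarotene replicate 1, 108 in control replicate 1 and at most 2.23 elsewhere. The sum of 5 endothelial genes was 356 against 61.6 to 170, and that of 6 mammary epithelial genes 2683 against 3988 to 5464. The lower epithelial sum was carried by Epcam, Krt8 and Krt18, whereas Krt19 was higher, at 28.2 against at most 1.96, and Erbb2, at 103, lay within the range of 93.8 to 173 of the other tumors. T and NK cell genes, at 10.9 against 5.33 to 14.7, lay within the range of the other tumors, and 7 neutrophil genes summed to 11.1 against 1.66 to 8.10, of which Csf3r alone gave 10.04. The defining neutrophil marker Ly6g was at 0 in every tumor but control replicate 2 (0.142). In bexarotene replicate 1, S100a9 read 0.185 against 0.0535 to 0.947 elsewhere, and S100a8 0.554 against 0 to 1.01. The sum of 6 dendritic cell genes was 13.5 in bexarotene replicate 1 against 2.62 to 6.01. Ccr7 read 0.0738 there against up to 0.674 elsewhere, Zbtb46, also made by endothelial cells, gave 8.01 of it, Cd209a read 1.92 against at most 0.302, and Clec9a 1.70 against at most 0.825. The list was thus highest in the tumor in which Clec10a, also carried by dendritic cells, was highest. The summed level of 6 adipocyte genes, 229, lay within the range of 217 to 302 of the other tumors, with Pnpla2 at 145 against 201 to 279. The median of these 6 genes relative to controls was 1.59 on the log2 scale against at most 0.36, with Fabp4 at 76.3 against 12.1 to 30.6 and Cidec at 3.99 against at most 0.855. The sum of 6 B cell genes was 3.06 against 0.245 to 2.18. The part these cells play in the level of the members was not tested.

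A further list of 20 macrophage genes, 17 of them tested, had a median log2 fold change of bexarotene over control of 0.73 (16 higher), and of -0.20 without bexarotene replicate 1 (4 higher). Some were chosen from it after their values were seen. Lyve1, Timd4 and Vsig4, commonly read as genes of resident macrophages, read 73.7, 8.56 and 10.2 in bexarotene replicate 1, 1.86, 0.286 and 0.811 in replicate 2 and at most 0.771 elsewhere. Which cells carried them was not tested, and the endothelial sum was also highest in bexarotene replicate 1. Trem2, a receptor of lipid-associated macrophages, read 76.6 in that tumor and 14.1 to 41.0 in the others.

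**Figure D4:**
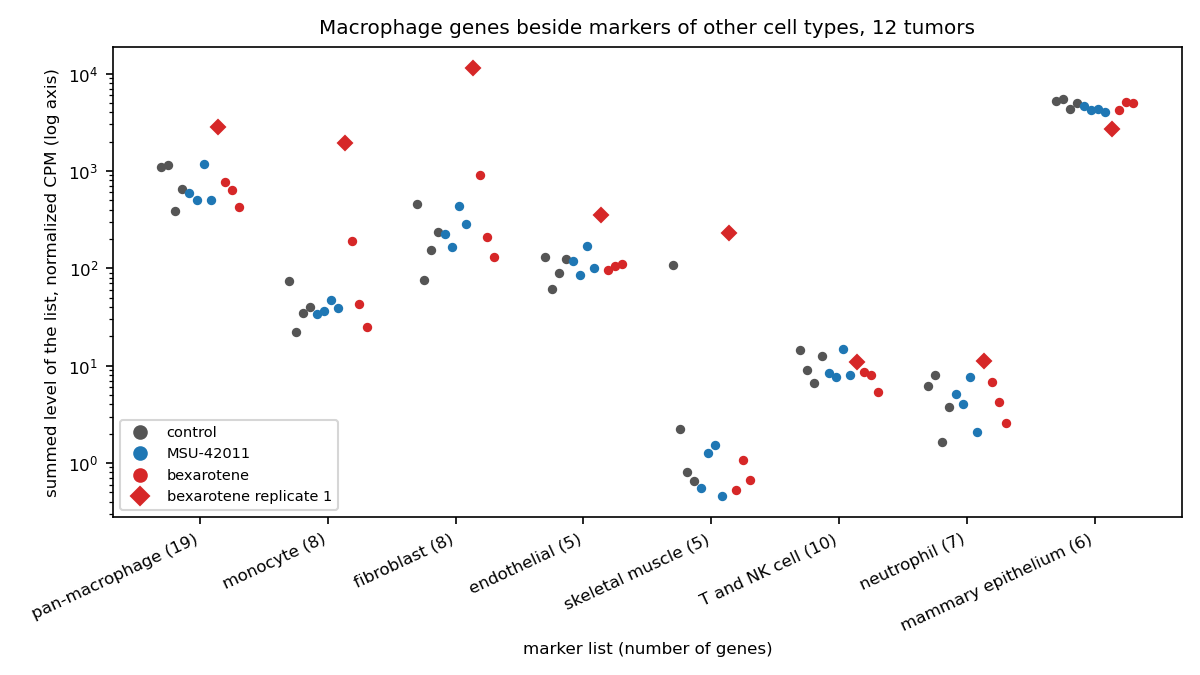
Summed normalized CPM of marker lists in each of the 12 tumors, on a log axis; the diamond is bexarotene replicate 1. It is the highest tumor for the pan-macrophage (2833), monocyte (1941), fibroblast (11290), endothelial (356), skeletal muscle (231) and neutrophil (11.1, of which Csf3r 10.04) lists and the lowest for the mammary epithelial list (2683).

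In the comparison of MSU-42011 with control, no member passed the threshold. With edgeR's quasi-likelihood test and Benjamini-Hochberg adjustment, 0 of 15504 genes (0%) and 0 of 31 members were called, and 0 members had an unadjusted p under 0.05 in either direction, where 0.851% of genes did as lower. DESeq2 called 0 members as well. Of the 31 members, 7 had a higher mean with MSU-42011 and 24 a lower one, with a median log2 fold change of -0.14 against 0.00155 over all genes. The pan-macrophage genes split 3 higher and 16 lower (median -0.14) and the state genes 4 and 8 (median -0.64). Without control replicate 1 the state gene median was -0.26 and the pan-macrophage median 0.0666, and without MSU-42011 replicate 3 the latter was -0.49, so its sign rested on single tumors. No member had groups that did not overlap, as 1.97% of genes did.

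For identity genes the difference of MSU-42011 from control was small beside its error. The log2 fold change was 0.47 for Adgre1 (95% interval -0.97 to 1.91), -0.24 for Csf1r (-1.52 to 1.03), -0.11 for Cd68 (-1.03 to 0.80), -0.49 for Spi1 (-1.64 to 0.65) and -0.18 for C1qa (-1.38 to 1.03). Fcgr1 stood at -0.14 and Tyrobp at -0.03. Without MSU-42011 replicate 3 the Adgre1 value was -0.0728, so its sign rested on that tumor. The smallest p-values among members belonged to Cd14 at -1.26 (standard error 0.697), Msr1 at -0.94 (0.655) and Clec7a at -0.73 (0.588), each with a Benjamini-Hochberg adjusted p of 1. The 2 highest Cd14 levels, in control replicates 1 and 2, gave the control mean its height. Mrc1 was at -0.67, Cd163 at -0.93, Clec10a at -0.76, Retnla at -2.15, Nos2 at 0.16, Cd86 at 0.16 and Folr2 at 0.10, and Chil3 was not tested. With single tumors left out, Csf1r reached -0.55 without MSU-42011 replicate 3 and -0.0507 without replicate 4, Spi1 -0.30 without control replicate 1, and Mrc1 -1.11 without MSU-42011 replicate 3. Cd163 reached -1.48 without MSU-42011 replicate 4 and -0.52 without replicate 3. Cd14 was -0.26 without control replicate 2, Clec7a -0.37 without control replicate 1 and Retnla -1.36 without control replicate 3. Retnla was at 0 in all MSU-42011 tumors but replicate 2, so its fitted value without that tumor, -6.71, is no measure of size.

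Without bexarotene replicate 1 these fold changes moved little, and the standard error of Msr1 was 0.372 in place of 0.655. Msr1 was then the 1 member with an unadjusted p under 0.05 (log2 fold change -0.94, 95% interval -1.75 to -0.13), where 1.09% of 15619 genes were as lower, and its adjusted p was 1. Its level was below the control mean in 4 of 4 MSU-42011 tumors, while the control range of 2.94 to 9.52 overlapped theirs (exact two-sided permutation test, p = 0.0857, n = 4 and 4). No gene was called (0%).

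By flow cytometry, the study counted cells positive for both F4/80 and CD206 protein in cultured bone marrow-derived macrophages. In the tumors the transcripts of these proteins, Adgre1 and Mrc1, can be set against each other. This is an unlike measure, since it is RNA of the whole tumor and not a share of cells. For each tumor, reads on Mrc1 were divided by reads on Adgre1. The ratio was 1.40, 1.08, 1.26 and 1.30 in controls, 0.546, 0.620, 0.525 and 0.744 with MSU-42011, and 3.69, 2.35, 0.647 and 0.977 with bexarotene. All 4 MSU-42011 tumors lay below all 4 control tumors, with a geometric mean of 0.603 against 1.25 and a difference of -1.06 on the log2 scale (SD 0.226 and 0.161). The exact two-sided permutation p was 0.0286 (n = 4 and 4), the smallest that 4 against 4 can give. With bexarotene the ratio spread over both sides of the controls (exact permutation p = 0.629, and 0.743 without replicate 1).

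The difference was smaller with other denominators. In the edgeR fit of MSU-42011 over control, the log2 fold change was -0.67 for Mrc1 and 0.47 for Adgre1. Both sides of the ratio thus entered the difference per read on Adgre1, which does not measure Mrc1 alone. Neither gene was called, and the sign of Adgre1 rested on MSU-42011 replicate 3. Mrc1 per read on Cd68 differed by -0.68 on the log2 scale and per read on C1qa by -0.58, both without overlap of MSU-42011 and control (exact permutation p = 0.0286, n = 4 and 4). Per read on Csf1r it differed by -0.51, the groups overlapped, and the exact permutation p was 0.0857 (n = 4 and 4). With Benjamini-Hochberg adjustment over these 12 tests of 4 denominators and 3 comparisons, no adjusted p from the exact permutation tests was under 0.0858 (n = 4 and 4). Between MSU-42011 and bexarotene 1 of the 4 denominators, C1qa, gave groups that did not overlap, with a log2 difference of -0.92 with all tumors and -0.39 without bexarotene replicate 1 (exact permutation p = 0.0286 each, n = 4 and 4, and 4 and 3). With Adgre1, Csf1r or Cd68 as denominator these groups overlapped in both settings, with exact permutation p from 0.0571 to 0.0857. The differences were -1.34, -1.06 and -1.33 on the log2 scale with all tumors and -0.92, -0.58 and -0.60 without bexarotene replicate 1, respectively. The ratio was chosen after the values were seen. Of all 465 pairs of tested members, 31 (6.67%) had ratios that separated MSU-42011 from control, and Msr1 was part of 15 of these pairs and Mrc1 of 10. With each control or MSU-42011 tumor left out in turn, the log2 difference of Mrc1 per Adgre1 stayed between -1.16 and -0.99.

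In the comparison of bexarotene with control, the direction of most members was set by 1 tumor. With all tumors, edgeR with Benjamini-Hochberg adjustment called 0 of 15504 genes (0%) and 0 of 31 members, and DESeq2 called 0 members. Of the 31 members 28 had a higher mean with bexarotene, with a median log2 fold change of 0.66 against 0.03 over all genes. The pan-macrophage genes split 18 higher and 1 lower (median 0.66) and the state genes 10 and 2 (median 0.81). At an unadjusted p under 0.05, 4 of 31 members were higher, all of them state genes, and 0 were lower, against 4.48% of all genes as higher. No member had groups that did not overlap (2.03% of genes).

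Those 4 were Clec10a with a log2 fold change of 3.83 (95% interval 0.96 to 6.71), Folr2 with 2.04 (0.36 to 3.72), Retnla with 4.85 (0.65 to 9.05) and Mrc1 with 2.33 (0.26 to 4.41). Each had a Benjamini-Hochberg adjusted p of 0.762 by edgeR. In the exact two-sided permutation test of mean levels (n = 4 and 4), p was 0.371 for Clec10a, 0.171 for Folr2, 0.429 for Retnla and 0.8 for Mrc1. DESeq2 gave no p for Mrc1, Retnla, Folr2 and Stab1, which it set aside for an outlying count. Cd163 stood at 2.1 (95% interval -0.69 to 4.87) and Adgre1 at 1.13 (-0.32 to 2.57). Csf1r was at 0.70, Cd68 at 0.30, C1qa at 0.83, Fcgr1 at 0.52, Tyrobp at 0.43, Spi1 at 0.66, Cd86 at 0.59 and Nos2 at -0.22. Cd209f, which did not pass the filter, had a log2 fold change of 6.87 with no filter (edgeR, Benjamini-Hochberg adjusted p = 0.614). Bexarotene replicate 1 held 990 of its 1059 reads. The mean Cd209f level with bexarotene was 9.79 normalized CPM with all tumors and 0.872 without replicate 1, against 0.0805 in controls.

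Without bexarotene replicate 1, leaving 3 tumors against 4, the direction turned for most members. Of 31 members 5 had a higher mean with bexarotene and 26 a lower one, with a median log2 fold change of -0.28. All 19 pan-macrophage genes were on the lower side (median -0.29), and state genes split 5 higher and 7 lower (median -0.28). Of 15466 genes tested in both fits 51.2% were higher. The pan-macrophage genes moved together across tumors, so the 19 are not separate observations. Their median log2 level relative to controls was 0.124, -0.178 and -0.686 in bexarotene replicates 2, 3 and 4. These values lie within the control tumors' range of -0.803 to 0.57. Adgre1 moved from 1.13 to -0.17 (95% interval -1.10 to 0.77), Csf1r from 0.70 to -0.45 (-1.20 to 0.31), C1qa from 0.83 to -0.20 (-0.96 to 0.56) and Mrc1 from 2.33 to -0.28 (-1.14 to 0.58). Clec10a stayed at 0.90 (-1.0 to 2.81), Retnla at 1.01 (-2.30 to 4.33) and Folr2 at 0.32 (-0.63 to 1.27), on the higher side with intervals that include 0.

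In the same fit of 15619 genes edgeR with Benjamini-Hochberg adjustment called 0 genes (0%), and 1 member, Msr1, had an unadjusted p under 0.05, as 1.75% of genes did as lower. Msr1 stood at -1.06 (95% interval -1.95 to -0.17, Benjamini-Hochberg adjusted p = 0.978 by edgeR). Its level was 2.45 to 3.97 in the 3 bexarotene tumors and 2.94 to 9.52 in controls (exact two-sided permutation test, p = 0.114, n = 3 and 4). Both agonists were compared with the same 4 control tumors, so their Msr1 differences share the control values. No member had groups that did not overlap, as 3.77% of genes did.

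**Figure D5:**
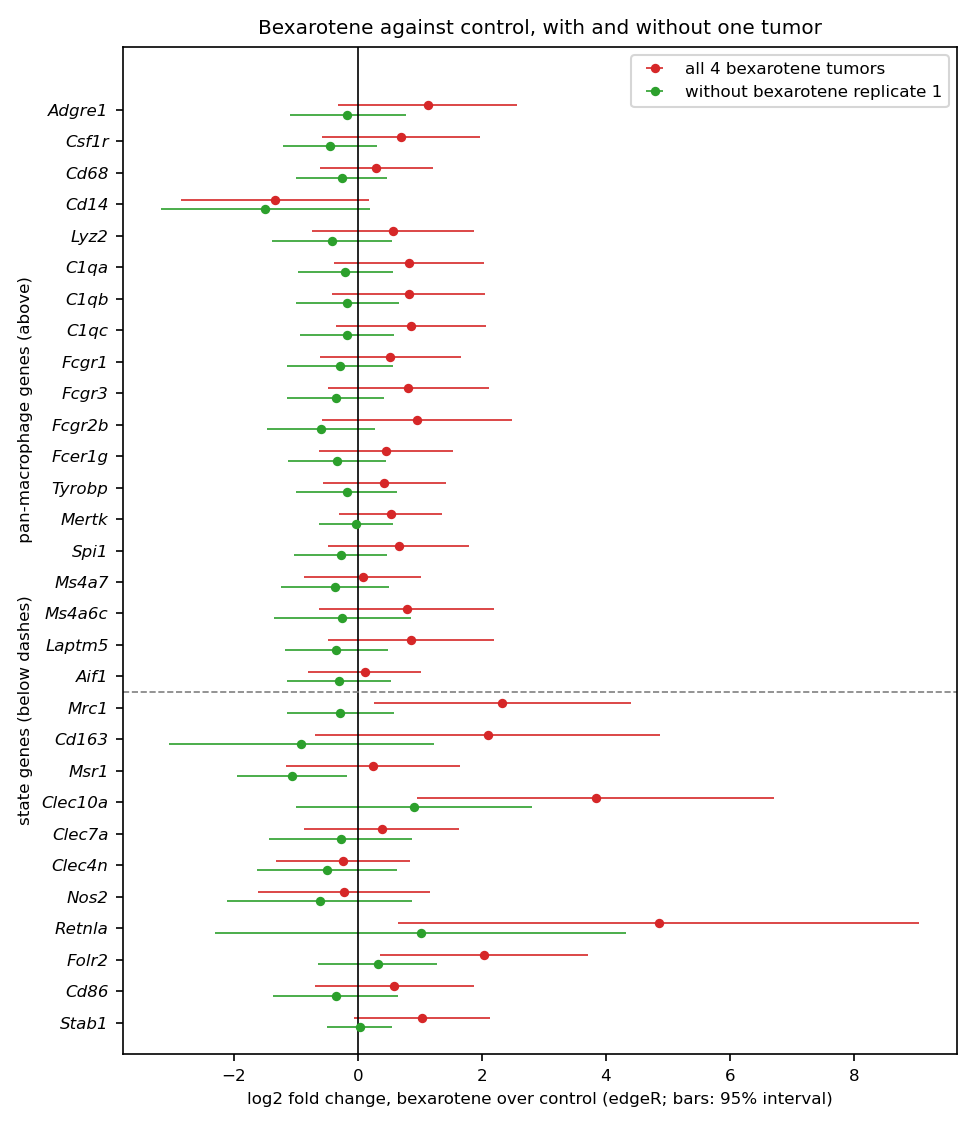
Log2 fold change of bexarotene over control for members tested, with 95% intervals, with all 4 bexarotene tumors and without replicate 1. With all tumors 18 of 19 pan-macrophage genes lie to the right of 0, and without replicate 1 all 19 lie to the left.

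MSU-42011 and bexarotene were given at the same dose and for the same time, so the groups can be set against each other directly. With all tumors 0 of 15504 genes (0%) and 0 of 31 members were called by edgeR with Benjamini-Hochberg adjustment, and DESeq2 called 0 members. Of the 31 members 2 had a higher mean with MSU-42011 (median log2 difference, MSU-42011 minus bexarotene, -0.87), against 45.1% of all genes. At an unadjusted p under 0.05, 6 of 31 were lower with MSU-42011, against 3.13% of genes. They were Clec10a at -4.59 (95% interval -7.61 to -1.58), Retnla, Mrc1 at -3.01 (-5.15 to -0.86), Folr2, Cd163 and Fcgr2b, each with a Benjamini-Hochberg adjusted p of 0.997 by edgeR. The fitted Retnla value, -7.0, is no measure of size, since all MSU-42011 tumors but replicate 2 were at 0, and it was -11.6 without that tumor and -3.16 without bexarotene replicate 1. Adgre1 differed by -0.66 (-2.09 to 0.78) and Csf1r by -0.95 (-2.22 to 0.33). No member had groups that did not overlap (1.17% of genes).

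Without bexarotene replicate 1, 0 genes (0%) were called and 0 of 31 members had an unadjusted p under 0.05, against 1.59% of genes higher and 1.47% lower at that threshold, so the count of members is near that of all genes. Of the 31 members 19 had a higher mean with MSU-42011 (median 0.12), against 50% of all genes. Adgre1 then differed by 0.63 (95% interval -0.31 to 1.58) and Csf1r by 0.20 (-0.56 to 0.96), Mrc1 by -0.39 (-1.26 to 0.47) and Clec10a by -1.66 (-3.62 to 0.29). These intervals include 0 and are wide, so they do not show that the compounds act alike. No member had groups that did not overlap, as 3.39% of genes did.

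Genes for growth, recruitment and regulation of macrophages were read from a list of 26, of which 25 were tested. In bexarotene against control the median log2 fold change was 0.32, with 20 of 25 higher, and 5 of them had an edgeR p under 0.05 before adjustment. Of all genes tested 55.3% were higher, and 4.48% were higher with a p under that threshold. Without bexarotene replicate 1 the median was -0.11, with 9 of 25 higher and 0 under that threshold. In MSU-42011 against control the median was -0.04, with 9 of 25 higher and 1 gene, on the lower side, under that threshold, while 50.3% of all genes were higher and 0.851% were lower with a p under it. None of the 25 was called after Benjamini-Hochberg adjustment. Csf1, the main growth factor, was 33.9 to 47.9 normalized CPM in 11 tumors and 133 in bexarotene replicate 1. Il34, its second ligand, ranged from 1.94 to 12 and was 20.5 there, and Irf8, a transcription factor of the lineage, ranged from 7.0 to 18.7 and was 35.6. In the test of any difference between diets, the list was led by Ccl7, Ccr2 and Ccl2, the monocyte attractants and their receptor (each Benjamini-Hochberg adjusted p = 0.998 by edgeR).

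Ccl2 read 34.9 in bexarotene replicate 1 and 0.690 to 3.62 elsewhere, and Ccl7 31.6 in that tumor, 5.01 in bexarotene replicate 2 and 0.189 to 2.37 elsewhere. Ccr2 read 41.0, 2.19 and 0 to 1.72. Their log2 fold changes of bexarotene over control were 2.34 for Ccl2, 3.38 for Ccl7 and 3.99 for Ccr2, and 0.45, 1.12 and 0.27 without that tumor. Ccl6 and Ccl9, chemokines of myeloid cells, followed the same order, with 215 and 112 in bexarotene replicate 1, 10.3 and 7.97 in replicate 2 and at most 3.98 and 6.20 elsewhere.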

How the data were processed

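Raw read counts per gene, not normalized, were deposited for each tumor, along with FPKM values that the authors made from them by scaling to library size and gene length. The submitters' processing notes name STAR 2.6.1d, featureCounts 1.5.0-p3 and DESeq2, without roles. The genome build is not given in the sources used here. All columns belonged to a labelled tumor. The 34 members, the gene lists and the tests were chosen with earlier results of these data known.

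Counts were scaled by TMM in edgeR 4.0.16 (normalized CPM), filtered with filterByExpr at its defaults and tested with 1 quasi-likelihood model of 3 group means over 12 tumors, with Benjamini-Hochberg adjustment over all genes tested and a threshold of 0.05. Without bexarotene replicate 1 the filter and fit were repeated. Single values were compared by exact two-sided permutation tests. Alternatives were DESeq2 1.42.0, limma 3.58.1 on log2(FPKM + 1) and log2(FPKM + 0.1), other filters and scaling, a replicate block, and each tumor left out (R 4.3.3). Fits were tested on simulated data. Fold changes were given for set members and the 3 with the smallest p in a comparison, a few others being named after their values were seen. One member is included in counts and sums but not reported here. RefSeq promoters end 50 bases after the start, which were not searched.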

Additional observations from a re-analysis of the deposited data

Results flagged for a closer look

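In each group of 4 tumors and for each of the 34 genes, the highest or lowest tumor was compared with the others by Dixon's test of the gap over the range. Of 102 such sets 28 had a tumor that far from the rest. For normally distributed values, chance gives about 1 in 20 independent sets. The levels used were not on a log scale, and these sets share the same 4 tumors in each group and are not independent. No share over all genes is given here, so the count is a description and not a trait of these genes. Bexarotene replicate 1 accounted for 21 of the 28, always as the highest of its group. That tumor was also the highest of all 12 for 19.1% of genes tested.

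Among pan-macrophage genes its normalized CPM were Adgre1 43.43, Csf1r 221.7, C1qa 503.9, C1qb 292.4 and C1qc 282.6. The level was also far from the other 3 tumors for Fcgr3 47.86, Fcgr2b 64.91, Tyrobp 58.71, Spi1 50.15 and Laptm5 187.3. Among lectins and scavenger receptors it was Mrc1 160.1, Cd163 16.31, Msr1 21.07, Marco 0.2952, Clec10a 61.73, Folr2 12.18, Cd209f 36.53 and Stab1 245.3. For activation genes it was Nos2 2.288, Retnla 69.48 and Cd86 8.782. The Nos2 value lies within the range of the control and MSU-42011 tumors, and Marco had 27 reads in all 12 tumors together.

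In the MSU-42011 group, replicate 3 stood apart from the other 3 for Cd68 at 34.99, Fcer1g at 17.66, Ms4a7 at 37.59 and Msr1 at 5.254 normalized CPM. These levels lie within the control range except that of Ms4a7, which is above it. Replicate 2 was the only tumor of the group above 0 for Retnla, at 0.6059, and for Cd209f, at 0.5453, and replicate 1 for Chil3, at 0.11. With the other 3 tumors at 0 the gap equals the range, so these 3 sets stand apart at any level above 0.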

How the results depend on the processing

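No member was called under any alternative run, with edgeR, DESeq2 or limma. In counts of all genes, DESeq2 called 1 between MSU-42011 and control, 6 between bexarotene and control, 25 between the compounds and 5 for any difference between diets, against 0 with edgeR. These DESeq2 counts are over genes without edgeR's filter, and over the 15504 genes that edgeR tested DESeq2 called 1, 5 and 17 in the 3 comparisons. Without bexarotene replicate 1 it called 1, 1, 3 and 3. Limma on log2(FPKM + 0.1) called 1 for bexarotene against control and 1 for any difference, and edgeR called 0 to 1 in both when single tumors were left out (1 without MSU-42011 replicate 2).

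Leaving out bexarotene replicate 1 turned the sign of most of these values. With DESeq2 the log2 fold change of bexarotene over control was then -0.17 for Adgre1, -0.45 for Csf1r, -0.27 for Cd68, -0.21 for C1qa, -0.29 for Fcgr1, -0.18 for Tyrobp, -0.28 for Spi1, -0.29 for Mrc1, -0.94 for Cd163, -0.36 for Cd86, the pan-macrophage median -0.29 and the state gene median -0.29. For MSU-42011 against bexarotene it gave 0.64 for Adgre1, 0.21 for Csf1r and medians of 0.15 and -0.16. With edgeR and each tumor left out in turn, the range for bexarotene over control was -0.17 to 1.42 for Adgre1, -0.45 to 0.98 for Csf1r, -0.26 to 0.54 for Cd68, -0.20 to 1.09 for C1qa, -0.29 to 0.80 for Fcgr1, -0.18 to 0.62 for Tyrobp, -0.27 to 0.91 for Spi1, -0.28 to 2.70 for Mrc1, -0.91 to 2.5 for Cd163, -0.36 to 0.98 for Cd86, -0.29 to 0.91 for the pan-macrophage median and -0.28 to 1.08 for the state gene median, the lowest each time without bexarotene replicate 1. Nos2 ranged from -0.61 to 0.21, positive without control replicate 1. For MSU-42011 against bexarotene the range was -1.20 to 0.63 for Adgre1, -1.24 to 0.20 for Csf1r, -1.09 to 0.14 for the pan-macrophage median and -1.45 to -0.16 for the state gene median.

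For MSU-42011 over control, the sign of small fold changes depended on single tumors, with -0.0728 to 0.69 for Adgre1, -0.38 to 0.10 for Cd68, -0.54 to 0.0474 for C1qa, -0.35 to 0.0657 for Fcgr1, -0.30 to 0.14 for Tyrobp, -0.35 to 0.59 for Nos2, -0.13 to 0.36 for Folr2, -0.14 to 0.56 for Cd86 and -0.49 to 0.0666 for the pan-macrophage median. The state gene median kept its sign, at -0.73 to -0.26 (nearest 0 without control replicate 1). The state gene median also moved with the scale: on log2(FPKM + 1) with limma it was -0.23 for MSU-42011 over control, 0.43 for bexarotene over control and -0.55 between the compounds; on log2(FPKM + 0.1) the latter were 0.40 and -0.69; with at least 10 counts in every tumor it was 0.41 for bexarotene over control, over fewer genes. Tyrobp for MSU-42011 over control was 0.12 and 0.12 on the 2 FPKM scales. The cause of these shifts was not tested.

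With a replicate block, edgeR called 0 genes and 0 members in each comparison. The replicate block gave 0.0353 for Tyrobp and -0.0492 for Folr2 in MSU-42011 over control, and state gene medians of 0.44 for bexarotene over control and -0.76 between the compounds. Deviations of 12 same-numbered pairs of tumors correlated at -0.352 to 0.349, with 4 over 0.1, so the numbers do not pair the tumors. The limits are few tumors and low counts. With 4 against 4 no exact two-sided permutation p can fall under 0.0286. State genes such as Retnla, Cd163 and Clec10a have wide intervals. These genes had few reads in most tumors but 1883, 442 and 1673, respectively, in bexarotene replicate 1. Marco, Chil3 and Cd209f lie near the floor of 3 counts in most tumors.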
